A study of Vitis vinifera and Vitis vinifera
Schisandra chinensis with 13 samples.

Results

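In the self-rooted grapevine, 1021 miRNAs were read at least once. With each name used once, the families miR482 and miR3623 together took 57.2% of their reads. Summed over all precursor lines, they took 28.9 and 19.1%. The plants were *V. vinifera* ‘Hongruibao’ on their own roots (Vv), the controls of a study of grafts onto *S. chinensis*. The paper describes them both as self-rooted and as self-grafted. They were sampled 25 years after grafting without special treatment. For each of 3 separate plants, the RNA of phloem, mature leaves and entire ripe berries was mixed and made into 1 small RNA library (Vv1, Vv2 and Vv3). Because the organs were pooled, no level can be assigned to leaf, phloem or berry, and fewer cells of a type cannot be told apart from fewer miRNA molecules per cell. The members are all miRNA names with a read in a Vv library, with deposited lines of the same name and counts used once, out of 1069 names in a table that also covers 3 libraries of graft hybrids. The other 48 names had no Vv read.

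In plants, DICER-LIKE1 cuts miRNAs of mostly 21 or 22 nt from hairpin precursors, and one strand is loaded into an ARGONAUTE protein that slices or represses paired transcripts. Most miRNAs loaded into ARGONAUTE1 begin with U, and 22-nt miRNAs can start the production of secondary small interfering RNAs from the transcripts they cut. Small RNAs of 24 nt are mainly products of another Dicer and act in DNA methylation.

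The sequences shown are the leaders of the 12 families with the most reads and the second miR482 sequence, since these carry most of the repertoire. They are as deposited, 5′ to 3′, with T standing for U, and the seed (bases 2 to 8) is in capitals. In the names, L and R give bases added or removed at the 5′ and 3′ ends of the reference, and ss a substituted base.
miR482, mtr-miR482-3p_L+1_2ss8TA20GT: tCTTACCAacacctcccattcc
miR482, vvi-miR482: tCTTTCCTactcctcccattcc
miR3623, vvi-miR3623-5p: tCACAAGTtcatccaagcacca
miR159, vvi-miR159c: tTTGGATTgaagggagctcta
miR166, vvi-miR166a_R+2_1: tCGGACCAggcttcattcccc
miR396, vvi-miR396b_R+1_1: tTCCACAGctttcttgaactg
miR3624, vvi-miR3624-3p: tCAGGGCAgcagcatactact
miR167, vvi-miR167b_R+1: tGAAGCTGccagcatgatctaa
miR827, tcc-miR827_1ss9CT: tTAGATGAtcatcaacaaaca
miR3633, vvi-miR3633a-3p: tTCCTATAccacccattcccta
miR162, vvi-miR162: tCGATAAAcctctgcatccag
miR3634, vvi-miR3634-3p: tTTCCGACtcgcactcatgccgt
miR172, vvi-miR172d_L-2: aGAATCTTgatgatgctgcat

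The libraries held 1758685, 1843060 and 1466755 reads on these miRNAs (Vv1, Vv2 and Vv3) when each name was used once. A read was found for 906, 819 and 889 miRNAs, and 700 miRNAs were read in all 3 plants. Reads were spread very unevenly. The first 3 miRNAs took 55.2% of reads and the first 10 took 76.8%, and 26 miRNAs made up 90% and 129 miRNAs 99%. At the other end, 489 miRNAs had under 10 reads over the 3 libraries together, and 128 were seen in 1 library only. At these depths, 3 counts correspond to 1.63 to 2.05 RPM (reads per 1000000 miRNA reads, each name used once), a limit that covers counting error only.

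The deposited values are estimated counts in which reads that fit several precursors appear to be divided among them. Among the 24 new miRNAs listed for more than one precursor, 26 of 61 library values above 0 were whole as listed, and all 61 were whole (within 0.001) once multiplied by the number of lines. For the 51 known ones, 47 of 150 values were whole as listed and 95 after the same multiplication, so an equal division among the lines of a name does not account for all of them. Summed over all lines of a family, 21 of 88 library values were whole. Where reads were divided, using a name once counts the share of a single precursor, and summing its lines adds those of the others. Shares below use each name once, and summed shares are given for the families and classes that moved most.

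miR482 was the largest family, at 37.2, 36.0 and 30.3% of reads (34.5% ± 3.68, SD, n = 3). This family is known from other plants to pair with transcripts of NB-LRR disease resistance genes. Its leader, named after the *Medicago truncatula* miRNA it resembles, had 442521, 469639 and 310403 reads (23.9% ± 2.41, SD, n = 3). The grapevine-named vvi-miR482 had 192183, 168224 and 111420 reads (9.22% ± 1.67, SD, n = 3). The leader was thus 2.30, 2.79 and 2.79 times as abundant as vvi-miR482, and it was the more abundant of both in each plant. Both are 22 nt long and end in the same 11 bases, cctcccattcc, a run found in 3 of the 1021 miRNAs, all of miR482. Relative to vvi-miR482, counted from the 5′ end, the leader carries T5A, T8A and T11A, so their seeds differ. Their precursors lie on different chromosomes. The third miR482 sequence, sly-miR482e-3p_2ss5TG20AT, differs from vvi-miR482 by T5G only and had 31, 24 and 21 reads.

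The precursor of vvi-miR482 sits beside both miR3633 precursors, all 3 on the same strand within 1592 bp. The miR482 sequence of few reads has its precursor entry in the same stretch, and that entry overlaps that of vvi-miR482. miR3633, a family numbered in grapevine, took 2.04% ± 0.557 of reads (SD, n = 3), led by vvi-miR3633a-3p with 37626, 39804 and 18445 reads. The sister vvi-miR3633b-3p had 2167, 1979 and 1293, so the a form was 14.3 to 20.1 times as abundant. vvi-miR3633a-3p shares the run cccattcc with the miR482 sequences, and only 4 of the 1021 miRNAs hold these 8 bases, all of miR482 or miR3633. From neighbouring precursors, vvi-miR482 was read 5.11, 4.23 and 6.04 times as often as vvi-miR3633a-3p.

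miR3623 was second, at 19.5, 19.8 and 28.8% of reads (22.7% ± 5.30, SD, n = 3). Nearly all of it was vvi-miR3623-5p, with 329023, 353606 and 412321 reads. In Vv3 this single miRNA passed the miR482 leader and was the most abundant of all, while in Vv1 and Vv2 it was second. Its opposite arm, vvi-miR3623-3p_R-1, had 13198, 11541 and 10192 reads, the narrow spread of which (9.01% coefficient of variation) contrasts with that of the 5p arm (24.1%). The ratio of the 5p to the 3p arm was accordingly 24.9, 30.6 and 40.5.

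**Figure D1:**
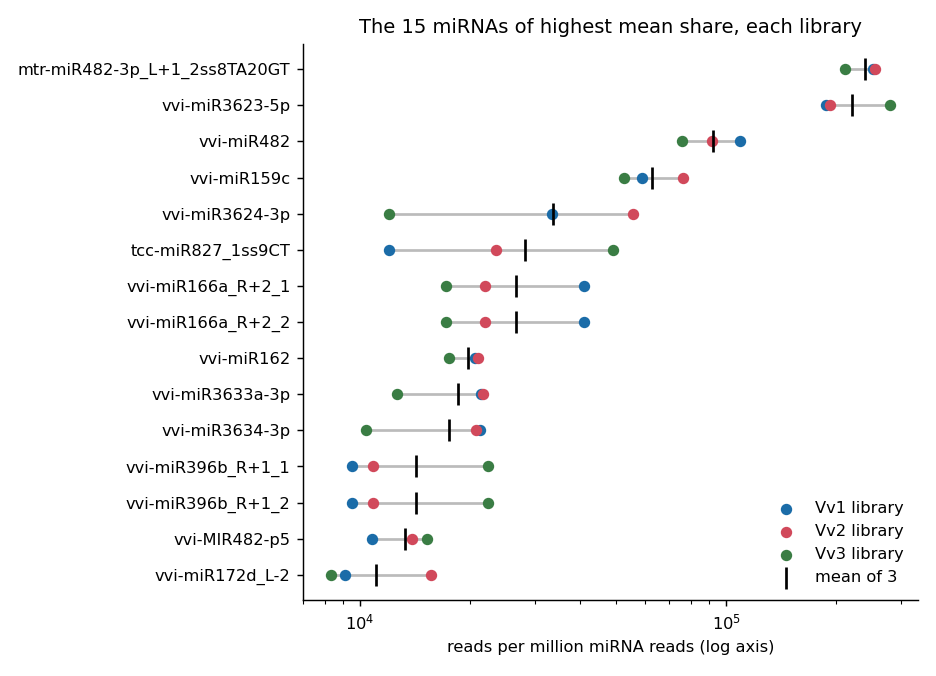
RPM (log axis) of the 15 miRNAs of highest mean share, 1 point per library and a bar at the mean of 3. With each name used once, the first 3 stand apart from the rest, and vvi-miR162 varies little. Summed over its 6 precursors (not plotted), vvi-miR166a_R+2_1 is above vvi-miR482 in each plant. vvi-miR3624-3p and tcc-miR827_1ss9CT spread several-fold between plants, with Vv3 lowest for the former and highest for the latter.

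The grapevine-numbered families miR3624 and miR3634 followed at lower levels. vvi-miR3624-3p had 58866, 102551 and 17628 reads, a share of 3.37% ± 2.18 (SD, n = 3), and was lowest in Vv3. vvi-miR3634-3p, of 23 nt, had 37354, 38199 and 15235 reads and was also lowest in Vv3. In both families the other arm was rare: the 3p form outnumbered the 5p form 45.6 to 87.9 times for miR3624 and 58.4 to 96.8 times for miR3634. miR827, which acts in phosphate balance in other plants, was highest in Vv3 instead, with 21123, 43203 and 71988 reads of tcc-miR827_1ss9CT (2.82% ± 1.90, SD, n = 3).

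Of the widely conserved families, miR159 and miR166 came first. With names used once miR159 was at 5.98, 7.75 and 5.47% (6.40% ± 1.20, SD, n = 3). It is a regulator of GAMYB transcription factors in other plants, and vvi-miR159c made up 97.7% of it. miR166, which targets HD-ZIP III transcription factors of leaf polarity and vascular development, was at 9.28, 5.09 and 4.58% used once (6.32% ± 2.58, SD, n = 3), above miR159 in Vv1 and below it in the others. It was at 16.2% ± 6.48 summed over precursors (SD, n = 3), where it came before miR159 in each plant. Its leader vvi-miR166a_R+2_1 is listed for 6 precursors. Summed over them it had 430910, 241983 and 151324 reads, more than vvi-miR482 in each plant. In Vv1 it was then also above vvi-miR3623-5p (19.5 against 14.9% of summed reads). vvi-miR166a_R+2_2 differs from it by C20T and carries exactly the same counts, so the abundance of these 2 sequences cannot be told apart. The same holds for vvi-miR396b_R+1_1 and vvi-miR396b_R+1_2, which differ by G21T.

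miR396, a regulator of growth-regulating factors, was at 2.33, 2.66 and 5.55% of reads and thus highest in Vv3. miR167, which targets auxin response factors, was at 3.42% ± 0.625 (SD, n = 3). The name of its leader made up 25.3% of it, and vvi-miR167c_R+1_1ss21CA, with the same sequence and counts, took as much again. vvi-miR162, which controls the transcript of *DCL1*, had 36323, 38659 and 25705 reads (1.97% ± 0.191, SD, n = 3), the narrowest spread among the 12 family leaders. miR172, which targets AP2-type transcription factors of flowering and phase change, was at 1.59% ± 0.553 (SD, n = 3). These 12 families, each above 1% of reads, held 90.5% in all. Of the 65 families, 17 were below 0.01%.

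Besides miR166, summing over precursors raised 7 families by more than 1.5 times, each of them with several precursors of the same mature sequence. miR164, which targets NAC transcription factors, went from 0.501 to 1.21%, miR403, a regulator of an ARGONAUTE transcript, from 0.184 to 0.547%, and miR535 from 0.537 to 0.878%. The others were miR156, miR160, miR395 and miR3631, all below 0.5% on either scale.

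**Figure D2:**
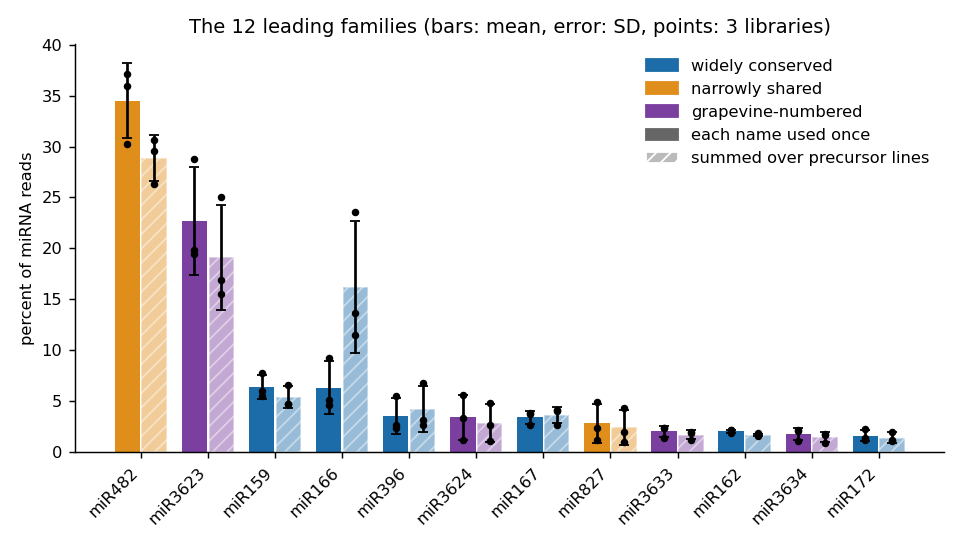
Percent of miRNA reads in the 12 leading families, with each name used once (solid) and summed over precursor lines (hatched); bars are means, error bars SDs and points the 3 libraries, and colours give the class. By mean share miR482 and miR3623 lead on both scales, and miR166 is the family that moves most, from 6.32 to 16.2%. In Vv1, summed miR166 is above summed miR3623 (23.6 against 15.5%).

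The repertoire was compared by how widely its families occur. The class lists were 21 families found in most flowering plants, 15 shared by some of them, and the grapevine numbers miR3623 to miR3640. All 21 widely conserved families were present and gave 289 miRNAs with 29.3, 27.8 and 26.0% of reads (27.7% ± 1.66, SD, n = 3). The narrowly shared families gave 61 miRNAs with 39.2% ± 2.08 of reads, of which miR482 made up 87.8% and all others together only 4.72% ± 1.65 of the repertoire. The 74 grapevine-numbered miRNAs took 31.2% ± 2.38, of which miR3623 made up 72.3%. Without miR3623 the grapevine-numbered families held 8.49% ± 3.17 of reads, so both classes rested on their leaders. The order of the classes rested on the counting: summed over precursors, the widely conserved families were first with 38.3% ± 4.25, then the narrowly shared with 33.7% ± 1.44 and the grapevine-numbered with 26.3% ± 3.15 (SD, n = 3).

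Most names, 572 of 1021, were new candidates not matched to a known precursor (PC in their names). They held only 0.632% ± 0.0591 of reads (SD, n = 3). Of these 380 had under 10 reads in all, and 59 reached 10 reads in each library. The 3 most abundant are shown as examples of both length types among them.
PC-3p-169_19241: gTTGGAAGtcggtgggggaac
PC-3p-938_3284: tGTGTTTTaaagtcgtgagggtcc
PC-3p-2332_1418: tGGTTGGTtgtatatagtatgaga
PC-3p-169_19241 had 3109.5, 3520 and 1467 reads at each of its 2 precursors. Of the 572 new miRNAs, it is 1 of 18 whose seed is also found in a known one. How many would share a seed by chance was not tested. Here the known one is the miR477 sequence vvi-MIR477a-p3_1ss9AC, from which it differs by C9T, A11G and C20A.
vvi-MIR477a-p3_1ss9AC: gTTGGAAGccagtgggggacc
This relative had 62, 83 and 1220 reads, so it was highest in Vv3, where the new one was lowest. PC-3p-938_3284 had 1329.5, 960.5 and 663.5 reads and PC-3p-2332_1418 had 936, 506.5 and 1094.5, without a common order over the plants.

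The hairpins of new miRNAs differed in make-up from those of known ones. Over 342 new precursors the median GC content was 27.7%, against 45.4% over 297 known ones, and the quartiles did not overlap (23.4 to 34.7% and 40.9 to 49.1%). Their median length was 141 against 113 nt. The folding index MFEI, which sets the folding energy against length and GC content, had a median of 1.4 against 1.0. Per the paper, new candidates were kept by criteria on their predicted hairpin, and known ones by matches to known precursors. The values thus describe deposited predictions selected in different ways, and they were not tested.

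By reads the repertoire was one of 22-nt miRNAs, by number one of 24-nt miRNAs. The 91 miRNAs of 22 nt took 60.5, 59.8 and 63.1% of reads (61.1% ± 1.71, SD, n = 3), and 3 of them, both miR482 leaders and vvi-miR3623-5p, made up 90.2% ± 0.312 of these. The 283 of 21 nt took 35.1% ± 1.38 (SD, n = 3), or 44.3% ± 3.23 summed over precursors. In contrast, 503 miRNAs or 49.3% of the names were 24 nt long and held 1.04% ± 0.249 of reads (SD, n = 3).

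Within the widely conserved families 87.6% of reads were of 21 nt, whereas 22 nt took 84.6% within the narrowly shared and 78.1% within the grapevine-numbered families. The latter shares rest on miR482 and vvi-miR3623-5p. By number, 38 of the 61 narrowly shared miRNAs were 21 nt long and 11 were 22 nt, and of the 74 grapevine-numbered ones 41 were 24 nt and 8 were 22 nt. Of the new miRNAs, 447 of 572 were 24 nt long, and so were 31 of the 39 of miR3631, the grapevine family with the most names. The 3 most abundant miRNAs of 24 nt were all grapevine-numbered: vvi-miR3639-5p_L-1R+1 with 3026, 1793 and 3901 reads, vvi-MIR3640-p3 with 2496, 1436 and 1277, and vvi-MIR3637-p3 with 1364, 1116 and 1239. Together they made up 33.7% ± 2.37 of 24-nt reads (SD, n = 3).

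**Figure D3:**
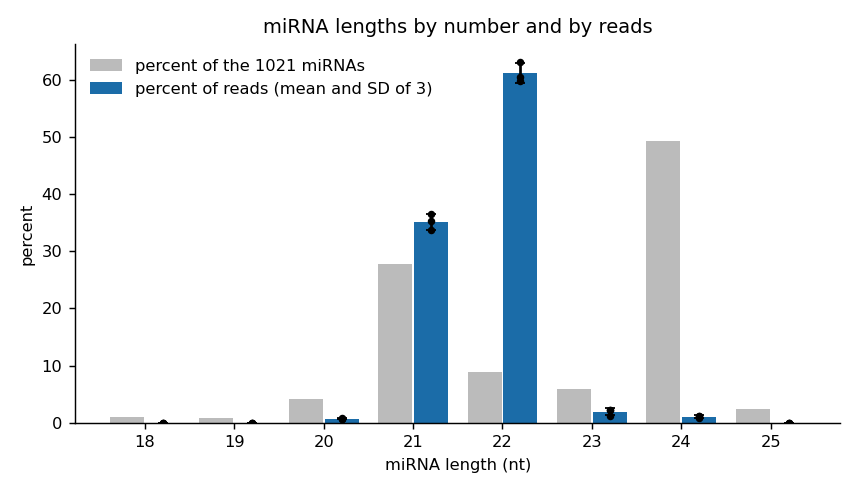
Percent of the 1021 miRNAs (grey) and percent of reads (blue, mean with SD, points for the 3 libraries) by miRNA length in nt. The 24-nt names are the most numerous at 49.3% but hold 1.04% of reads, and the 22-nt miRNAs are 8.91% of names with 61.1% of reads.

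A first base U was found in 93.3, 92.6 and 90.9% of reads (92.2% ± 1.21, SD, n = 3) but in 358 of the 1021 miRNAs. In the 22-nt class U made up 99.5% of reads. Among the 503 miRNAs of 24 nt the leading first base was A, in 242 or 48.1%, and A took 26.6% of their reads against 38.6% for U. The most abundant miRNAs with another first base than U were vvi-MIR482-p5, vvi-miR172d_L-2 and ptc-miR167f-3p, all starting with A. vvi-MIR482-p5, the arm opposite to vvi-miR482, had 18915, 25472 and 22373 reads.

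Reads whose name gives an exact match to a reference miRNA made up 51.0% ± 1.25 (SD, n = 3), from 70 miRNAs. Names with a substituted base took 28.4% ± 1.17, mostly the miR482 leader, and names shifted only at the ends 13.5% ± 1.72 (24.7% ± 4.83 summed over precursors, SD, n = 3). Extra bases at the 3′ end, alone or with other changes, were seen in 70 of 247 mature forms with 11.2% of reads, and missing ones in 38 with 1.81%. Extra bases at the 5′ end were seen in 47 forms with 25.3% of reads, nearly all of the miR482 leader, and missing ones in 25 with 1.49%. By name, 265 miRNAs referred to grapevine (69.4% ± 0.920 of reads) and 184 to 29 other species (30.0% ± 0.918, SD, n = 3).

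Sequences of known precursors that are not listed as mature carry names in -p5 or -p3 and were usually rare. The 202 such forms held 5.77, 4.91 and 8.57% of reads (6.42% ± 1.92, SD, n = 3) and thus most in Vv3. For 74 pairs of a mature form at 100 RPM or more and the p form of the same precursor, the median ratio of p to mature form was 0.0553, and 45 ratios were below 0.1. A mature form listed for several precursors, such as vvi-miR403a or vvi-miR171a, enters several pairs, so the pairs are not independent. At the low end, vvi-miR319g_R-1 had 3051.5, 3113.4 and 2362.7 reads and its p form 1, 0 and 0. Also at this end were the pairs of vvi-miR160c with aqc-MIR160b-p3_1ss6CT (the lowest ratio), vvi-miR319e with vvi-MIR319e-p5 and vvi-miR171a with vvi-MIR171d-p5. In these the p form had 4 reads or fewer in all. vvi-miR160c, vvi-miR171a and the sequence of vvi-miR319g_R-1, shared with vvi-miR319b_R-1, have further precursors whose p forms had more reads.

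Among these 74 pairs 1 was inverted. At the miR156d precursor, vvi-MIR156d-p3 had 1525, 2307.5 and 986.5 reads and the mature vvi-miR156b had 221.8, 510.8 and 258.4, so that the p form was 6.87, 4.52 and 3.82 times as abundant. The mature count is 1 of 3 precursor lines, and even the sum over these lines (665.5, 1532.5 and 775.3) stayed below the p form. miR156 restrains SPL transcription factors and so the passage from juvenile to adult growth in other plants. The sequences of this pair are shown because the p form is the more abundant.
vvi-miR156b: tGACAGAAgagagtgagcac
vvi-MIR156d-p3: tGCTCACCtctctttctgtcagc
Next came vvi-miR3631a-5p, whose p form had 547, 414.5 and 504.5 reads against 541, 421.3 and 608.7 on the line of the same precursor. It is listed on 4 lines, which sum to 2164, 1685.3 and 2434.7 reads, so the ratio holds per line only. vvi-miR398b and vvi-miR399i, with ratios of 0.599 and 0.580, completed the upper end, and vvi-miR398b too is 1 of several lines.

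The condition on the mature form leaves out other inversions. Of the 51 pairs whose mature form was below 100 RPM, the p form was the more abundant in 14. For 25 further pairs both arms carry p names, so the deposited names hold no mature form for them. A p name may there stand for either arm, that of the reference mature miRNA included. The pairs of the highest p forms among these were named after their values were seen: vvi-MIR171b-p3 had 18421, 6526.3 and 7975 reads and its partner vvi-MIR171b-p5 had 101, 23 and 29, and vvi-MIR477a-p5 had 6106, 5450 and 4191. Both of these abundant p forms lead their families, as a p form did in 15 of the 65 families. Where no mature form is named, this does not show that the arm opposite to it prevailed.

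**Figure D4:**
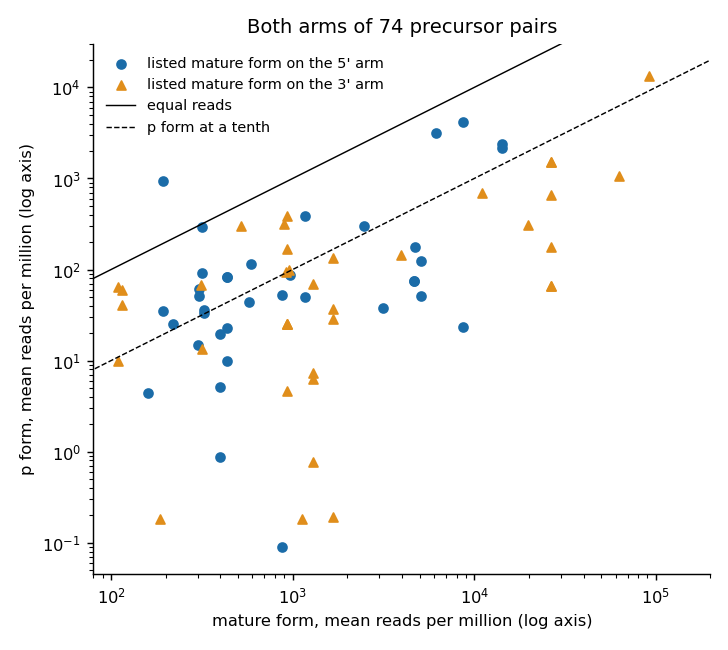
Mean RPM of the p form against those of the mature form (both log axes) for 74 pairs of one precursor, with lines of equal reads and of a ratio of 0.1. Of the 74 pairs, 45 lie below the dashed line, and only the miR156 pair lies above the line of equal reads.

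Between the 3 plants, miRNA levels varied by more than counting alone gives. Over 148 miRNAs at a mean of 100 RPM or more the median coefficient of variation was 38.1%, where counting alone gives 3.28%. The highest plant exceeded the lowest more than 2-fold for 79 of them and more than 5-fold for 17. The biological coefficient of variation estimated by edgeR over 307 miRNAs was 50.5%, and 41.2% without Vv3. Across 308 miRNAs with 10 reads in each library, the correlation of log2 RPM was 0.959 for Vv1 and Vv2, 0.936 for Vv1 and Vv3 and 0.919 for Vv2 and Vv3, as a description over miRNAs. Vv3 thus stood somewhat apart.

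The steadiest miRNA was vvi-miR319b_R-1, with 1735.1, 1689.2 and 1610.9 RPM and a coefficient of variation of 3.74%. It shares its sequence and counts with vvi-miR319g_R-1 and is listed on 3 lines, with a share of 0.168% used once and 0.422% summed. vvi-MIR166a-p5, vvi-miR3623-3p_R-1 and vvi-MIR167a-p3 were also under 10%. The most variable was vvi-MIR477a-p3_1ss9AC, described above, at 150.3%. Next came gma-MIR5368-p5_2ss1TC21TC with 200, 159.5 and 1673.5 reads, peu-MIR2916-p5_1ss5AG with 2588, 1459 and 12407, and ath-miR8175_L+2_1ss4AT with 1258, 1096 and 6363. All of these were highest in Vv3.

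miR5368, miR2916 and miR8175 belong to the 25 known miRNAs outside the class lists. That group held 0.554, 0.497 and 2.79% of reads, and these 3 families alone 0.533, 0.483 and 2.76%, so nearly the whole excess in Vv3 lay in them. The end of peu-MIR2916-p5_1ss5AG is also the start of peu-MIR2916-p3, so these sequences overlap. Whether the reads of these 3 families come from miRNA precursors was not tested. vvi-miR169o_L+1R-1, of a family that targets NF-YA transcription factors, was highest in Vv2 instead, with 518.3, 1739.6 and 87.1 reads, under the same sequence and counts as vvi-miR169l_L+1R-1 and vvi-miR169m_L+1R-1. By class, the median coefficient of variation was 30.7% for 25 grapevine-numbered, 39.4% for 86 widely conserved and 44.1% for 22 narrowly shared miRNAs.

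A set chosen after its values were seen is that of miR397, miR398 and miR408, which act on transcripts of copper proteins in Arabidopsis. All 3 leaders were highest in Vv1, as were 47 of the 148 miRNAs at a mean of 100 RPM or more. vvi-miR397a had 843, 113 and 178 reads, vvi-miR398a had 2625, 1388 and 630.7, and vvi-miR408_L-1R+1 had 3537, 1079 and 375. The phosphate-linked families did not share an order: miR399 made up 0.259, 0.114 and 0.139% of reads, while miR827 was lowest in Vv1 and highest in Vv3.

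**Figure D5:**
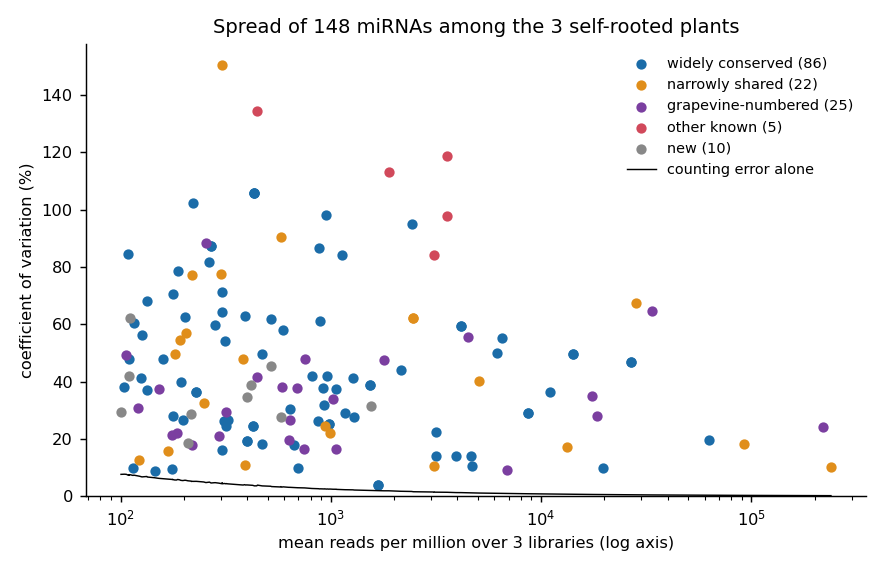
Coefficient of variation over the 3 libraries against mean RPM (log axis) for 148 miRNAs, coloured by class, with the line that counting error alone would give. The median is 38.1% against 3.28% from counting, and the 5 miRNAs outside the class lists lie between 84.3 and 134.4%.

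Precursors of several families lay close together. With a gap of at most 10000 bp on one strand, miR395 formed a group of 6 precursors over 13718 bp, miR169 3 groups of 4, and miR167 and miR399 1 group of 4 each. miR3631 with 39 and miR169 with 35 had the most precursors of the known families. Their reads were only 0.0970 and 0.499% of the repertoire used once, and 0.163 and 0.490% summed. Of the 12 leading families, miR3623 and miR3624 had 1 precursor each, but miR166 had 12, miR172 11 and miR396 10. Other families of 1 precursor, such as miR3625 and miR3638, were rare. Whether precursor number and reads are related was not tested.

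Cleavage sites of these miRNAs were read from 1 degradome library, in which 5′ ends of cut transcripts are sequenced. It mixed RNA of all 6 plants, graft hybrids included, so its reads are not those of Vv plants alone and have no replicate. Category 0, the strictest, means that the predicted site has the single highest read count of the transcript. Of the 15 most abundant miRNAs 14 had a detected site and 13 one of category 0. The numbers were 67 and 31 of 135 miRNAs at ranks 16 to 150, and 167 and 49 of the 871 below. Any site was found for 157 of 289 widely conserved, 29 of 61 narrowly shared and 21 of 74 grapevine-numbered miRNAs. For the known miRNAs outside the class lists it was 10 of 25, and for the new ones 31 of 572. Neither of these groups had a category 0 site.

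The most reads at a category 0 site were found for vvi-miR3634-3p, 3691 at the transcript locus MSTRG.12158 and 589 at VIT_19s0085g00430, a gene annotated as membrane-integral. The MSTRG loci carry no annotation here, even where their reads match those of a named gene. For vvi-miR162, MSTRG.7256 and *DCL1* both had 369. For the miR482 leader, 2578 reads lay at MSTRG.4790, and 14 each at VIT_11s0037g01270 and VIT_12s0121g00060. Both VIT genes are annotated with ADP binding, a term carried by NB-LRR proteins. vvi-miR3624-3p had 2394 reads at MSTRG.21654, 2362 at VIT_00s0259g00100 and 2346 at VIT_00s0259g00070, the latter pair annotated with transition metal ion binding. Whether these near-equal counts are the same reads on overlapping or similar transcripts was not tested. Despite its abundance, vvi-miR3623-5p had only 14 reads at its best site, in VIT_18s0041g01650, which is annotated with ADP binding and signal transduction.

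Among the conserved families, vvi-miR162 had 369 reads at *DCL1* (VIT_15s0048g02380), the enzyme that makes miRNAs. miR166 had 360 at *REV* (VIT_06s0004g02800) and 102 each at *ATHB-15* and *ATHB-8*, all HD-ZIP III genes. miR396 had 40 at *AtGRF9* (VIT_15s0048g01740), a growth-regulating factor, and miR172 had 77 at VIT_13s0019g03550 and 38 at *RAP2.7* (VIT_06s0004g03590), of the AP2 type. tcc-miR827_1ss9CT had 259 at MSTRG.12589, which carries no annotation here. miR159, although abundant, reached 8 at VIT_13s0067g01630, and miR167 and miR3633 had no category 0 site, so read number and degradome signal did not rank the families alike.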

How the data were processed

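The members, the class lists and the choice of named miRNAs were fixed with earlier results of these data known. Per the file headers and the study's methods, the authors trimmed small RNA reads, removed matches to mRNA, RFam and Repbase, and assigned the rest to miRBase precursors and the genome with ACGT101-miR. They deposited estimated counts per mature arm and precursor, not normalized. A genome build was not given in the sources used here. HISAT and StringTie are also named in the submitters' processing notes. Lines with the same name and counts were used once, and shares were taken of each library's total. The columns of the graft hybrid libraries, 17 emptied lines and the FPKM table were not used here. Hairpin length, GC percent and the folding scores MFEI and free energy were taken as deposited, and so were degradome read counts, categories and alignment scores, made by the authors with CleaveLand. The replicates are separate plants. Composition was described as mean ± SD of 3 libraries without a test, since no groups were compared. Spread was estimated with edgeR 4.0.16 (R 4.3.3; common dispersion, intercept only, TMM, filterByExpr) on counts rounded to whole numbers, and checked on simulated data. DESeq2 1.42.0 size factors were an alternative. Named were the leaders of the 12 families, the 15 miRNAs and the 3 of each class with the most reads, the 4 highest and lowest arm ratios, the 5 highest and lowest coefficients of variation, the 3 leading miRNAs with another first base than U, and the category 0 site with the most reads in each family, besides those said to be chosen afterwards or needed to describe a pair.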

Additional observations from a re-analysis of the deposited data

How the results depend on the processing

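No paired analysis was possible because a single group of 3 libraries was described. Of 113 alternative values for 13 results, 87 stayed within 1 SD of the libraries (counts: within 1.5 times; biological coefficient of variation: within the SD of its leave-one-out values). One entry per sequence and shares of the pooled reads moved none. Summing every deposited line gave 44.3% for 21 nt, 52.2% for 22 nt, 28.9% for miR482, 38.3, 33.7 and 26.3% for the widely conserved, narrowly shared and grapevine-numbered families and 45.3% for exact sequences. Using names of 1 family with identical counts once, an alternative chosen after seeing the data, moved the opposite way: 32.0% for 21 nt, 64.3% for 22 nt, 23.1% for the widely conserved, 41.6% for the narrowly shared families and 53.9% for exact sequences. Without the most abundant miRNA, shares of the rest were 46.3% (21 nt), 48.8% (22 nt), 1.37% (24 nt), 36.5% (widely conserved), 20.1% (narrowly shared), 41.0% (grapevine-numbered), 0.830% (new), 8.39% (p forms), 67.1% (exact) and 89.8% (first base U), and the leading family became miR3623 with 29.7%. With at least 10 counts in each library, 308 miRNAs remained and new ones held 0.547%. Leaving out each library in turn moved 1 of 39 values: the biological coefficient of variation ranged from 41.2 to 55.5%. The precision of rare miRNAs is limited by depth, and an SD from 3 plants is imprecise. Which count of a multi-precursor miRNA is closest to its molecules was not tested.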

Other observations

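Both miRNAs named for the potato family miR8005 consist of a repeated unit, tttaggg, the telomere repeat of most plants. They were read at low levels, stu-MIR8005a-p3_1ss5GA with 140, 83 and 61 reads and stu-MIR8005a-p5_1ss19GT with 80, 61 and 52 reads (Vv1, Vv2 and Vv3). The sequences are printed with the seed (bases 2 to 8) in capitals because the repeat fills them.
stu-MIR8005a-p3_1ss5GA: gTTTAGGGtttagggtttagggtt
stu-MIR8005a-p5_1ss19GT: aGGGTTTAgggtttagggtttagg
By arm, 3′ arms held 69.9, 68.6 and 57.9% of reads although they made up 512 of the 1021 miRNAs, and the 5′ share was highest in Vv3, the library in which vvi-miR3623-5p led.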
